A study of Mus musculus with 12 samples.

Results

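The granule exocytosis and trafficking genes of goblet cells comprised 10 genes that were named one by one: the small GTPase genes Rab27a, Rab3d and Rab37, the Rab27 effector gene Sytl2, the Golgi trafficking gene Hid1, the ferlin gene Fer1l6, the SNARE gene Vamp8, the calpain genes Capn8 and Capn9 and the annexin gene Anxa13. They were chosen with the difference between EPR cKO and EPR fl/fl libraries already known, so that their values in that comparison are a description. All 10 had a row among the 55376 genes of the count table, and all 10 were among the 15952 genes expressed highly enough to be tested.

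Total RNA was sequenced from the proximal colon of 12 mice aged 12 weeks, with 1 library per mouse. The 6 EPR fl/fl mice carried the EPR promoter and exon 1 between loxP sites and served as controls. The 6 EPR cKO mice carried the same floxed alleles together with the CDX2P-NLS Cre transgene. Its Cre is under human CDX2 control and active in the lining of the large bowel and of the last stretch of the small bowel, so that the deletion was limited to epithelium. EPR is a long non-coding RNA of epithelial tissues, and the count table lists it under the symbol Smim31. Whole frozen pieces of proximal colon were used, so that each library mixed goblet cells with other epithelial cells, muscle, nerves and immune cells, and the cell in which a transcript was made was not measured. In such bulk tissue, fewer cells of a type and less RNA per cell cannot be told apart.

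Goblet cells store mucin in large granules that bud from the trans-Golgi network, travel to the apical side of the cell and fuse with the plasma membrane. Rab GTPases and their effectors carry and tether the granules, SNARE proteins of the granule and plasma membranes drive fusion, and calcium-binding proteins such as synaptotagmins, ferlins and annexins act on the membranes concerned. Release runs at a slow constant rate and can be accelerated by secretagogues that raise calcium. Muc2, the gel-forming mucin of the colon, is the main cargo.

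Library depth ranged from 13093904 to 33211041 counts. EPR itself had between 21.3 and 58.1 CPM (counts scaled to the size of each library, with TMM factors for its composition) in the EPR fl/fl libraries and between 0 and 0.424 CPM in the EPR cKO libraries, which checks the labels. The cargo gene Muc2 had 4083 to 14598 CPM in EPR fl/fl and 1073 to 2028 CPM in EPR cKO. All 13 goblet cell markers had a negative log2 fold change and 7 of them passed an adjusted p of 0.05. Their summed level was 13730 to 28960 CPM in EPR fl/fl and 6459 to 8842 CPM in EPR cKO (log2 difference -1.27, exact two-sided permutation test, n = 6 against 6, p = 0.00216, adjusted p = 0.0141 over 13 marker lists). The median log2 fold change of the 13 goblet markers was -0.79, a smaller fall than in their sum. The marker lists were chosen with earlier results of these data known, so that the p-values of such sums are a description. Sums of markers of other cells were taken in the same way as the goblet sum. For mesothelial and fat markers the log2 difference was -1.56 (6 of 6 genes lower, adjusted p = 0.0422, lost in 9 of 12 fits without 1 library), and for smooth muscle markers it was -0.95 (10 of 10 genes lower, adjusted p = 0.161, and -1.39 with adjusted p = 0.00469 without EPR cKO 1). The absorptive colonocyte sum was higher by 0.39 (adjusted p = 0.0375). The part of these in the values of the 10 genes was not tested. One library, EPR cKO 1, stood apart from the other EPR cKO libraries: its mean log2 CPM over 10 smooth muscle genes was 9.38, against 6.31 to 7.68 in the other 5, and its mean over 13 pan-epithelial genes was 9.11, against 9.40 to 9.70. Results are therefore given with and without it where it changes them.

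Start sites were read from RefSeq promoters (GRCm38.p6), which held 6 sequences for 5 of the 10 genes, namely Rab3d, Rab27a with 2 start sites, Capn8, Capn9 and Vamp8. Entries for Rab37, Hid1, Fer1l6, Anxa13 and Sytl2 were not used here. The sequences of Rab3d, Rab27a and Vamp8 are printed because these genes hold the best known Rab and SNARE roles of granule release and because Vamp8 alone among the 10 was not lower in EPR cKO. Each runs 5′ to 3′ on the strand of the gene over 300 bases, and capitals mark a match, on either strand, to CAGCTG (an E-box of the kind bound by ATOH1) or GGGCGG (bound by KLF and SP factors).
Rab3d, chr9:21918134-21918433, minus strand: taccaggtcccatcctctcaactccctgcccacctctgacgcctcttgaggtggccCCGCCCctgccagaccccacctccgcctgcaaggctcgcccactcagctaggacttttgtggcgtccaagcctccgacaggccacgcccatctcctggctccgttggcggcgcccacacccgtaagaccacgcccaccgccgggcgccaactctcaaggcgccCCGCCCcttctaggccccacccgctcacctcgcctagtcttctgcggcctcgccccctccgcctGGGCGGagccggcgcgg
Rab27a first start site, chr9:73044560-73044859, plus strand: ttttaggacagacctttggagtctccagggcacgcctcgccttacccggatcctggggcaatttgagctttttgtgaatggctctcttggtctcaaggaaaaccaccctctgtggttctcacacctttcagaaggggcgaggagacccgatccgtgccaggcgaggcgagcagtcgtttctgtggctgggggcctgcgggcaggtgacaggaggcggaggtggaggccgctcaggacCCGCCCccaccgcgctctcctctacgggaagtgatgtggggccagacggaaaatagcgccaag
Rab27a second start site, chr9:73063898-73064197, plus strand: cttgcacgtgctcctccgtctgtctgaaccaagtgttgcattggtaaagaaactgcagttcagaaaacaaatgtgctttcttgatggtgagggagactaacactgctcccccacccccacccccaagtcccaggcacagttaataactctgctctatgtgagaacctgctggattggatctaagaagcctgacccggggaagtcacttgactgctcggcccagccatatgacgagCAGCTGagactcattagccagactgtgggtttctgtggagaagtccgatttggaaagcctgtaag
Vamp8, chr6:72390618-72390917, minus strand: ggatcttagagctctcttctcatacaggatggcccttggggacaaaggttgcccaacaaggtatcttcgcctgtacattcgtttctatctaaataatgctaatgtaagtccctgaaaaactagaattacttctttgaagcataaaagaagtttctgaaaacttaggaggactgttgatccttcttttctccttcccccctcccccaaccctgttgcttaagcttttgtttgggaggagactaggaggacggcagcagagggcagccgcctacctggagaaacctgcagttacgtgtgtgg

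GGGCGG was found 3 times in the Rab3d promoter and once at the first Rab27a start site, and 35.7% of the 32851 RefSeq promoters of the same length held it. CAGCTG was found only at the second Rab27a start site among the 6 sequences, where it began 15 bases before the start, and 16.3% of all promoters held it. No match to TTTATNG (the CDX motif, in 10.9% of all promoters), TGTTTAC (FOXA, 3.65%) or TGACGTG (XBP1 and CREB3 type, 2.01%) was found in the 6 sequences. The matched motifs did not overlap each other. The GC content of the printed sequences was 71.0% for Rab3d, 61.3% and 51.3% for the Rab27a start sites and 46.7% for Vamp8, against a median of 52.7% over all promoters.

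The genes lie on 7 chromosomes (GRCm38). Rab37 (chromosome 11, 115091431 to 115162236) and Hid1 (115347707 to 115367756, opposite strand) are 185.5 kb apart, and Anxa13 (chromosome 15, 58341363 to 58389383) and Fer1l6 (58510048 to 58662933, opposite strand) are 120.7 kb apart. Rab3d (21907491 to 21918192) and Rab27a (73044854 to 73097629) share chromosome 9 at a distance of 51.1 Mb. Capn8 lies on chromosome 1 (182565007 to 182632352), Vamp8 on chromosome 6 (72385223 to 72390703), Sytl2 on chromosome 7 (90348699 to 90410439) and Capn9 on chromosome 8 (124576111 to 124618731). Reads were counted over all exons of each gene, and except for Rab27a no member shared exon bases with a gene model on the same strand.

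The 10 genes were expressed at unequal levels in control colon. Per kilobase of exon, Rab3d (33.4 ± 4.04 CPM per kb, SD, n = 6) and Vamp8 (33.2 ± 6.35) were the highest in EPR fl/fl, at percentiles 89.4 and 89.3 of the tested genes. Fer1l6 followed at 24.5 ± 4.89 CPM per kb, Sytl2 at 22.9 ± 3.10 and Rab27a at 15.9 ± 2.12. Hid1 at 13.1 ± 2.93 was next, and Capn9 had 10.7 to 15.7 CPM per kb. Anxa13 (4.84 ± 1.35), Rab37 (3.98 ± 1.24) and Capn8 (3.59 ± 1.13) formed the low end, between percentiles 40.2 and 47.1. Of the 9 pairs of neighbours in this order, only Capn9 and Anxa13 had ranges that did not overlap: the lowest control library of Capn9 had 10.7 CPM per kb and the highest of Anxa13 had 7.05.

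**Figure D1:**
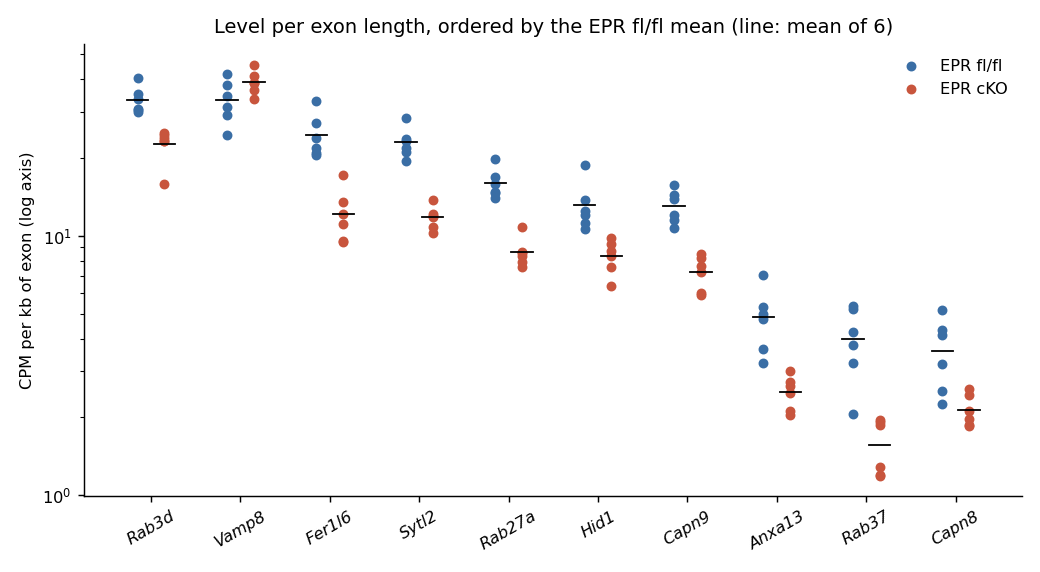
CPM per kilobase of exon (log axis) of each gene in the 6 EPR fl/fl (blue) and 6 EPR cKO (red) libraries, ordered by the EPR fl/fl mean, with lines at the group means. In EPR fl/fl the means run from 33.4 for Rab3d to 3.59 for Capn8, with the single gap between neighbours at Capn9 and Anxa13.

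In the comparison from which they were chosen, 9 of the 10 genes had a lower level in EPR cKO. The fit across all genes called 8 of them lower at an adjusted p under 0.05 and none higher, where it called 1.57% of all tested genes lower (251 genes) and 0.884% higher (141 genes). With total counts in place of TMM, that split was 247 lower and 39 higher. The study thresholds (adjusted p under 0.001 and a log2 change beyond 1.25) were applied here to the p-values of this fit. None of the 10 passed them, and 0.169% of all tested genes passed as lower. The study set them on a Bayesian statistic, and it named SYTL2 among the factors strongly reduced in its RNA-Seq. In 8 genes all 6 EPR cKO libraries lay below all 6 EPR fl/fl libraries, a pattern seen in 1.47% of tested genes. Without EPR fl/fl 4 or without EPR cKO 3 the fit called 5 of the 10 lower, beside 145 of 15857 and 156 of 15884 tested genes. Without EPR cKO 1 it called 9, beside 2273 of 15836. The median log2 fold change was -0.86 over the 10 genes and 0.02 over all tested genes. Since the genes were picked on this contrast, these counts are printed for scale and nothing is read from them.

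**Figure D2:**
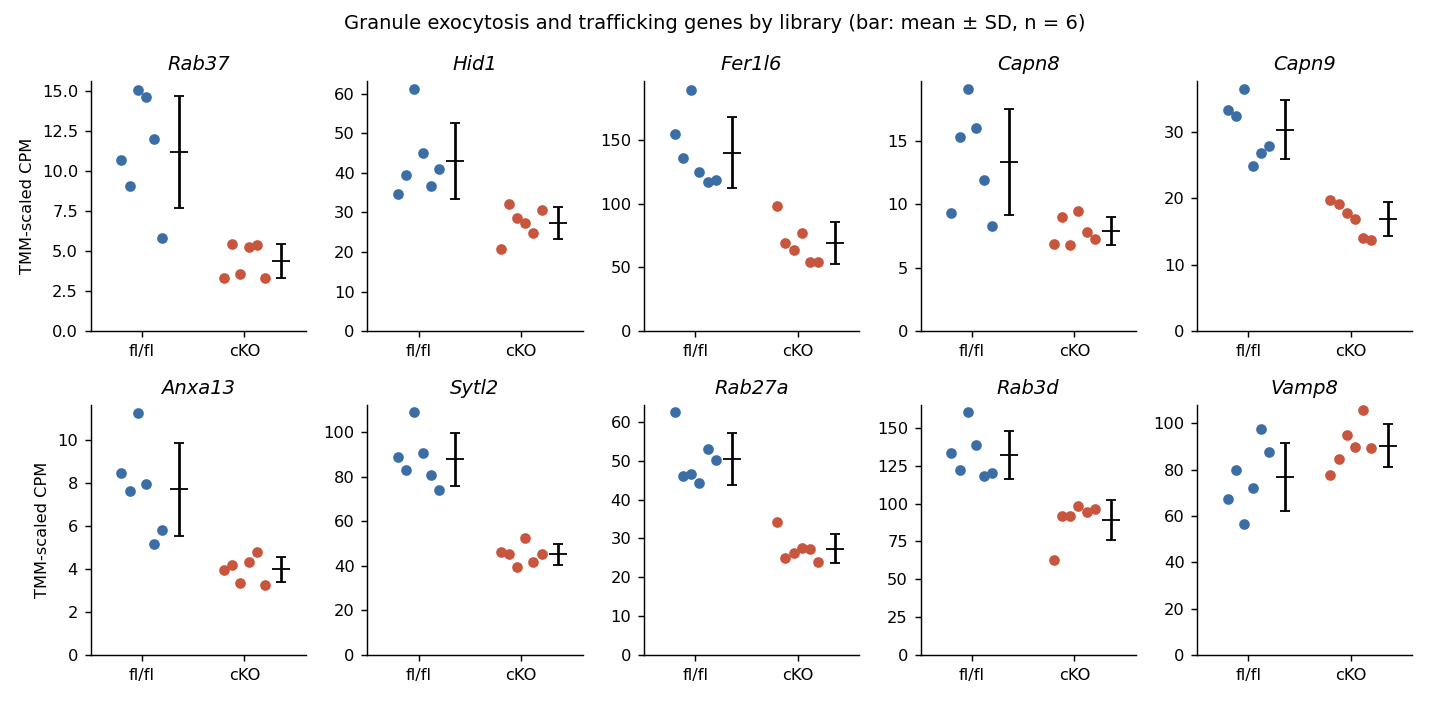
TMM-scaled CPM of the 10 genes in each of the 12 libraries (points, in replicate order) with mean ± SD of the 6 libraries of each group (black). The groups do not overlap in 8 panels, they overlap in part for Capn8, and Vamp8 is the single gene whose EPR cKO mean (90.3 CPM) lies above its EPR fl/fl mean (76.8 CPM).

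Among the Rab GTPases, Rab27a, which docks secretory granules at the plasma membrane, had 44.2 CPM in the lowest, 48.4 in the median and 62.5 in the highest EPR fl/fl library, and 23.9, 26.8 and 34.4 CPM in EPR cKO. The highest EPR cKO library was EPR cKO 1, and it still lay below every control. The log2 fold change was -0.88 (SE 0.10), and without EPR cKO 1 it was -0.97 (SE 0.09). Of the Rab27a exon bases, 4.7% lie under a same-strand gene model, Gm27186, so that a small part of its reads may be shared. Rab3d marks zymogen and mucin granules in exocrine cells. It ranged from 118 through a median of 128 to 160.4 CPM in EPR fl/fl and from 62.6 through 92.9 to 98.2 CPM in EPR cKO. Here EPR cKO 1 was the lowest library, and the other 5 lay close together between 91.5 and 98.2 CPM. Its log2 fold change of -0.57 (SE 0.11) was the smallest among the genes called lower, and it was -0.50 (SE 0.08) without EPR cKO 1. Rab37, a further GTPase described on secretory granules, had the largest log2 fold change of the 10, -1.34 (SE 0.23). It had 5.81, 11.4 and 15.1 CPM in the lowest, median and highest control library against 3.35, 4.44 and 5.47 CPM in EPR cKO. The EPR cKO mean was 39.3% of the control mean, and the gap between the groups was narrow, since 1 control library (EPR fl/fl 6) came close to the EPR cKO range.

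Sytl2 encodes a synaptotagmin-like protein that binds Rab27 and membrane phospholipids and so tethers granules. Its levels were 74.3, 86.2 and 109 CPM (lowest, median, highest) in EPR fl/fl and 39.4, 45.4 and 52.6 CPM in EPR cKO. The coefficient of variation was 13.5% and 10.1% in the 2 groups, and the log2 fold change of -0.96 had the smallest standard error of the 10 genes (0.10). Hid1 encodes a peripheral membrane protein of the trans-Golgi that takes part in sorting cargo into dense granules. It had 34.6, 40.2 and 61.1 CPM in EPR fl/fl and 20.9, 28.0 and 32.2 CPM in EPR cKO. The groups lay close to each other, with 32.2 CPM in the highest EPR cKO library and 34.6 CPM in the lowest control, and the log2 fold change was -0.65 (SE 0.14).

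Fer1l6, a member of the ferlin family of multi-C2-domain membrane proteins, had the highest mean CPM of the 10 genes in control colon (140.1 ± 27.9 CPM, beside 132 ± 16.0 CPM for Rab3d, whose range it overlapped). It had 117, 130.4 and 189 CPM in the lowest, median and highest EPR fl/fl library and 54.0, 66.3 and 98.2 CPM in EPR cKO, with a log2 fold change of -1.01 (SE 0.16). As for Rab27a, EPR cKO 1 was the EPR cKO library nearest to the controls, and without it the log2 fold change was -1.16 (SE 0.14). Anxa13, an annexin of epithelial cells linked to apical vesicle transport, had 5.16, 7.80 and 11.3 CPM in EPR fl/fl and 3.25, 4.08 and 4.80 CPM in EPR cKO. The groups were separated by less than 1 CPM, and the log2 fold change was -0.95 (SE 0.19).

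Capn8 and Capn9 encode calcium-dependent proteases of mucus-secreting surface cells that assemble with each other in the stomach. Capn9 had 24.8, 30.1 and 36.5 CPM (lowest, median, highest) in EPR fl/fl and 13.8, 17.3 and 19.8 CPM in EPR cKO, a log2 fold change of -0.84 (SE 0.12) with no overlap. Capn8 had 8.28, 13.6 and 19.1 CPM in EPR fl/fl and 6.81, 7.54 and 9.47 CPM in EPR cKO. Its groups overlapped, with 4 of 6 EPR cKO libraries below the lowest control. The log2 fold change of -0.76 (SE 0.20) did not pass in the fit over all 12 libraries (edgeR quasi-likelihood test, adjusted p = 0.0624), and it was -0.74 (adjusted p = 0.0207) without EPR cKO 1. Over the 12 fits without 1 library its adjusted p ranged from 0.0207 to 0.151, and 3 were under 0.05.

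Vamp8, the SNARE of secretory granules and late endosomes, was the exception. It had 56.5, 75.9 and 97.4 CPM in EPR fl/fl and 77.8, 89.7 and 106 CPM in EPR cKO, so that 5 of 6 EPR cKO libraries lay within the control range and 1 above it. The log2 fold change was 0.24 (SE 0.12, edgeR adjusted p = 0.319). This p does not show that the level was equal in both groups.

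Epithelial marker levels varied between libraries, and each gene was also set against 3 references within the same library, as a description. These ratios were taken for the 10 genes only. No share over all tested genes stands beside their counts, and nothing is read from those counts. The summed level of 13 pan-epithelial markers ranged from 9838 to 13960 CPM in EPR fl/fl and from 11170 to 17300 CPM in EPR cKO (log2 difference 0.30, exact permutation adjusted p = 0.0957). Without EPR cKO 1 it was higher in EPR cKO by 0.37 (adjusted p = 0.0121). Relative to the mean log2 CPM of these markers, 7 of the 10 genes had all EPR cKO libraries below all controls, and the median difference was -1.11 on the log2 scale. Vamp8 differed by 0.00188 from its control mean on that scale. With the mean of the epithelial markers as a covariate in the fit, 4 genes were called lower (Sytl2, Rab27a, Fer1l6 and Capn9). That fit called 92 of 15952 tested genes lower. The covariate was 9.065 to 9.42 in EPR fl/fl, 9.11 in EPR cKO 1 and 9.40 to 9.70 in the other EPR cKO libraries. It thus differed with genotype, and the fit cannot fully separate it from genotype. Tff3, a trefoil peptide secreted by goblet cells, itself had a negative log2 fold change in EPR cKO. A fall in Tff3 by itself raises every ratio to it, also those of Vamp8, Rab3d and Hid1 given below. The study reported similar Tff3 levels in both groups by qRT-PCR of isolated crypts, not of whole tissue. Relative to Tff3, 9 genes overlapped between groups with a median difference of -0.31. Rab3d (-0.03) and Hid1 (-0.09) were nearest to 0, Rab37 (-0.77) was lowest, and in Vamp8 (0.80) all EPR cKO libraries were higher. Muc2 itself had a log2 fold change of -2.19, a larger fall than in any of the 10 genes. A higher mean ratio to it was therefore set by the reference, and nothing is read from it. Relative to Muc2, every gene had a higher mean ratio in EPR cKO, with a median difference of 1.25. In 8 genes all EPR cKO libraries lay above all controls. The exceptions were Rab37 (0.79) and Rab27a (1.23), whose groups overlapped.

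**Figure D3:**
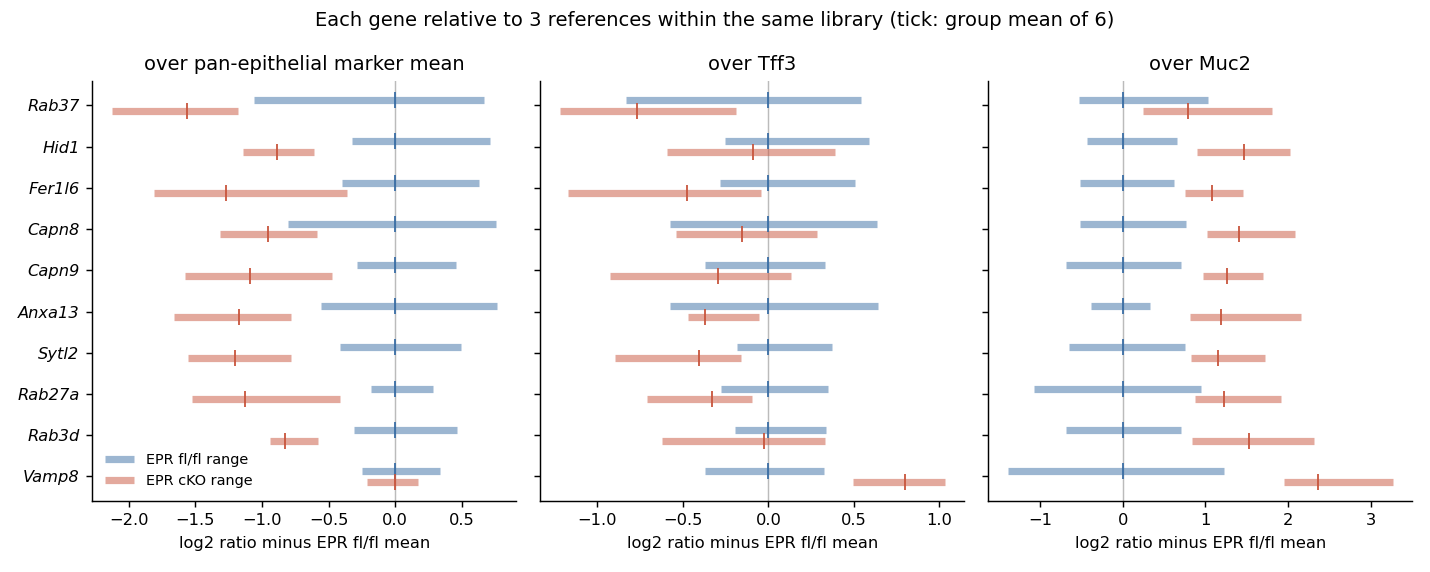
Log2 ratio of each gene to the mean of 13 pan-epithelial markers (left), to Tff3 (middle) and to Muc2 (right) within the same library, less the EPR fl/fl mean. Bars span the 6 EPR fl/fl (blue) or EPR cKO (red) libraries and ticks mark the means. The median difference is -1.11 over the epithelial markers, -0.31 over Tff3 and 1.25 over Muc2, which itself fell more than any of these genes.

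Several of these genes also work in granules of cells other than goblet cells, so markers of such cells were summed. Of 10 mast cell markers only Kit, Mcpt1 and Mcpt2 were expressed highly enough to be tested. Their summed level was 94.6 to 158 CPM in EPR fl/fl and 48.4 to 86.5 CPM in EPR cKO (log2 difference -0.75, exact permutation adjusted p = 0.0141). Most of it was Kit (mean 107 and 45.3 CPM), which pacemaker cells of the gut wall also express, while the mast cell protease gene Mcpt1 had means of 3.48 and 14.4 CPM. The 9 neutrophil markers summed to at most 2.54 CPM in any library. Cytotoxic lymphocyte markers summed to between 15.1 and 138 CPM in EPR fl/fl and between 31.8 and 146 CPM in EPR cKO (adjusted p = 0.647), and 10 pancreatic acinar markers to between 25.5 and 50.7 CPM over all 12 libraries, with Amy2a5 at 0. Enteroendocrine markers summed to between 413 and 755 CPM in EPR fl/fl and between 403 and 618 CPM in EPR cKO (adjusted p = 0.627). The part of these cells in the values of the 10 genes was not tested.

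The other genes of regulated exocytosis were taken as 8 lists by role, with 125 genes in all. Of these, 113 were tested, and 4 were called lower and 2 higher in EPR cKO, beside the 1.57% and 0.884% of all tested genes given above. The median log2 fold change over the 113 genes was 0.05. A total of 52 had a negative and 61 a positive sign, and at an unadjusted p under 0.05 there were 10 lower and 22 higher, where 7.12% of all tested genes were lower and 11.1% higher at that threshold. Vamp7 and other genes without a tested row were not analysed here.

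The 4 genes that fell lie in 3 of the lists. Rab27b, the close relative of Rab27a, had 79.3 to 104 CPM in EPR fl/fl and 48.5 to 62.7 CPM in EPR cKO (log2 fold change -0.72, SE 0.08, edgeR adjusted p = 0.000343). Sytl4, which encodes the Rab27 effector granuphilin, had 26.5 to 36.8 CPM against 14.3 to 19.7 CPM (-0.85, SE 0.10, adjusted p = 0.000716). Myrip, which links Rab27 on granules to myosin and actin, had 10.4 to 18.0 CPM against 2.40 to 8.26 CPM (-1.53, SE 0.25, adjusted p = 0.00611). Syt7, a synaptotagmin with high calcium affinity, had 55.8 to 90.5 CPM against 35.3 to 49.4 CPM (-0.76, SE 0.11, adjusted p = 0.00332). In none of the 4 did the groups overlap. The 2 genes that rose were Anxa7, an annexin, with 135 to 159.6 CPM in EPR fl/fl and 181 to 228 CPM in EPR cKO (0.42, SE 0.07, adjusted p = 0.00816), and Fer1l4, a ferlin family gene, with 1.25 to 7.17 CPM against 6.72 to 28.5 CPM (2.15, SE 0.44, adjusted p = 0.0228), in which the groups overlapped. With the epithelial marker mean as a covariate, Rab27b, Sytl4 and Myrip were still called (adjusted p between 0.00469 and 0.0307), whereas Syt7 (adjusted p = 0.0652), Anxa7 (0.108) and Fer1l4 (0.24) were not. Fer1l4 was also not called without EPR fl/fl 3, EPR fl/fl 4, EPR cKO 3 or EPR cKO 6.

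By role, 1 of 11 secretory Rabs and 2 of 13 Rab effectors and granule motors passed as lower. In these lists Rab10 (135 ± 9.85 against 146 ± 6.90 CPM), Rab11a (75.3 to 101 against 97.9 to 125 CPM), Myo5b (282 ± 23.6 against 339.8 ± 28.6 CPM) and Myo5c (96.0 ± 15.3 against 74.8 ± 14.2 CPM), the most abundant of those that did not pass, overlapped between the groups. Of 19 ferlins, synaptotagmins and priming factors, 1 passed as lower and 1 as higher. None of 26 SNAREs and SNARE regulators passed, as for Vamp8, and the most abundant, Vamp3 and Stx3, had log2 fold changes of 0.27 (SE 0.09) and 0.24 (SE 0.07). None of 11 other calpains and calpastatin passed, and their log2 fold changes ran from -0.66 to 0.30 with a median of 0.11. The annexin list held 11 tested genes, of which S100a10 is not itself an annexin. Of these 11, 1 passed as higher, and their median was 0.42. At an unadjusted p under 0.05, 8 of the 11 were higher (11.1% of all tested genes). Anxa2 (489 ± 113 against 712 ± 117 CPM, edgeR adjusted p = 0.107) and Anxa4 (289 ± 32.6 against 366 ± 77.6 CPM, adjusted p = 0.222) were among them, as was S100a10. None of 9 exocyst subunits and none of 13 genes of granule formation at the Golgi passed, with medians of 0.11 and 0.09.

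**Figure D4:**
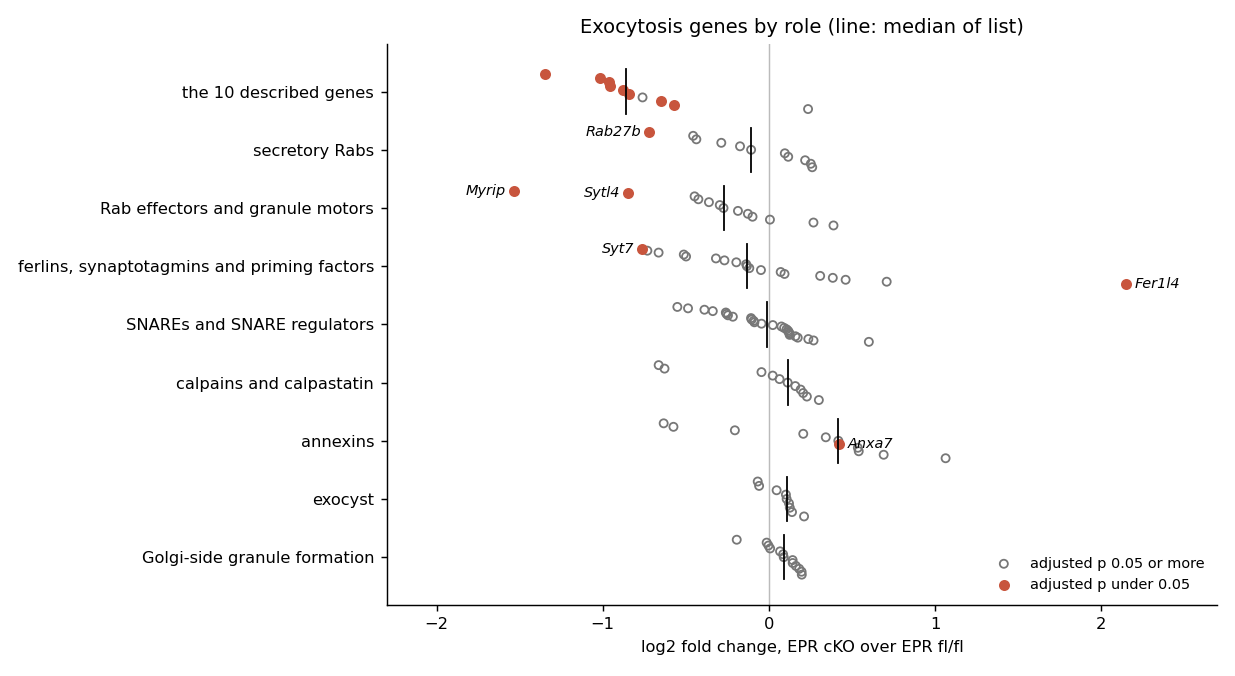
Log2 fold change (EPR cKO over EPR fl/fl) of the 10 described genes and of the tested genes in 8 role lists, with filled points for an adjusted p under 0.05 and a line at the median of each row. The 4 called genes to the left (Rab27b, Sytl4, Myrip, Syt7) lie in the Rab, effector and synaptotagmin rows, and Anxa7 and Fer1l4 lie to the right.

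Leaving out EPR cKO 1 changed the number of calls over all genes. Without it, 14.4% of 15836 tested genes were called lower and 7.44% higher. Of the 111 pathway genes tested, 21 were then called lower (18.9%) and 12 higher (10.8%). The genes called lower included 5 of 11 secretory Rabs (Rab3a, Rab3b, Rab8b, Rab15 and Rab27b) and 5 of 13 effectors and motors (Rims1, Myo5a, Myrip, Sytl4 and Sytl5). Some of them, such as Rab3a and Rims1, are synaptic genes of neurons. The summed level of 10 enteric neuron and glia markers fell by 1.20 on the log2 scale without that library (exact permutation adjusted p = 0.00469) and differed by -0.78 with it (adjusted p = 0.232), and its part in these calls was not tested. Of the annexin list, 5 of 11 genes were called higher (Anxa1, Anxa2, Anxa4, Anxa7 and Anxa8). Of the 10 described genes, 9 were called lower and Vamp8 stayed uncalled.

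How the genes vary together among libraries of the same group was not used to choose them. The spread within groups does enter the adjusted p of the comparison that was known beforehand. After the group mean was subtracted from the log2 CPM of each gene, Pearson's r over the 12 libraries was positive for 28 of the 45 pairs, with a median of 0.284 (median Spearman's rho 0.224). The 36 pairs without Vamp8 had a median r of 0.399. All 9 pairs with Vamp8 had a negative r (-0.799 to -0.0906), with a median of -0.413. By rank, 1 of these 9 was positive (highest rho 0.042, median rho -0.273). The mean r with the other 9 genes was -0.483 for Vamp8 and -0.159 for Rab27a, and it was between 0.165 and 0.345 for the remaining 8. Rab27a was negative with Hid1 (-0.758), Rab3d and Capn8. The highest r joined Fer1l6 and Capn9 (0.849). Without EPR cKO 1 the median was 0.506 over the pairs without Vamp8 and -0.701 over those with it, of which 1 was positive (r = 0.158). All pairs share the same libraries and their depth, and no share over pairs of other genes stands beside these counts. These values are therefore a description.

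**Figure D5:**
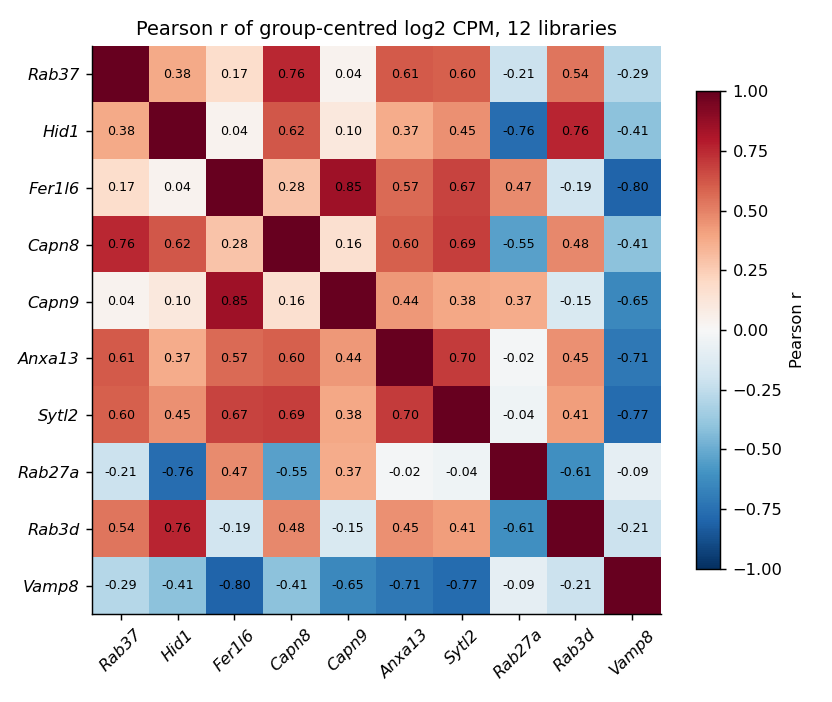
Pearson's r between the group-centred log2 CPM of each pair of genes over 12 libraries, from -1 (blue) to 1 (red). Over these 12 libraries Vamp8 has a negative r with all 9 other genes (-0.80 to -0.09), and the highest value (0.85) is between Fer1l6 and Capn9.

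The genes were also set against the marker levels of the same libraries, as a description. Of 30 relations between a gene and the mean log2 CPM of goblet, pan-epithelial or smooth muscle markers, each group-centred over 12 libraries, 2 passed an adjusted p of 0.05 by Pearson's r. Rab3d rose with the goblet score (r = 0.918, permutation p = 0.0001, adjusted p = 0.003, rho = 0.853, permutation p = 0.00026, adjusted p = 0.0078), and r was 0.913 without the 2 libraries farthest from the median of that score. Rab3d also ran against the smooth muscle score without passing (r = -0.782, permutation adjusted p = 0.0965, rho = -0.706, adjusted p = 0.0549). That r was -0.415 without EPR cKO 1 and EPR cKO 5. The part of tissue make-up in these relations was not tested. Fer1l6 ran against the pan-epithelial score (r = -0.837, permutation p = 0.00199, adjusted p = 0.0299, rho = -0.748, permutation p = 0.0135, adjusted p = 0.0725), so that it did not pass by rank, and r was -0.594 without EPR fl/fl 3 and EPR cKO 1, which were the farthest. With the goblet score, r was 0.729 for Anxa13, 0.712 for Hid1, 0.645 for Sytl2, 0.622 for Rab37, 0.588 for Capn8, 0.16 for Fer1l6 and 0.113 for Capn9, and it was negative for Rab27a (-0.43) and Vamp8 (-0.507). None of these passed after adjustment. Without EPR fl/fl 5 and EPR cKO 1, the 2 libraries farthest from the median of the goblet score, r was 0.721 for Fer1l6, 0.34 for Capn9, 0.0205 for Rab27a and -0.781 for Vamp8, and between 0.539 and 0.906 for Anxa13, Hid1, Sytl2, Rab37 and Capn8. Several of the lower values therefore rest on those libraries, and no difference between genes was tested.

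For each gene, the tested gene outside the 10 whose group-centred log2 CPM was most like it over the 12 libraries was taken from 11448 candidates with a mean of at least 5 CPM. These were C1galt1 for Rab3d (r = 0.959), Msantd4 for Rab27a (0.942), Rnase4 for Rab37 (0.891), Lmbr1 for Sytl2 (0.95), Sec16a for Hid1 (0.943), Bptf for Fer1l6 (0.951), Agt for Capn9 (0.907), Slc17a9 for Capn8 (0.966), Hmga2 for Anxa13 (0.943) and Bcar3 for Vamp8 (0.932). C1galt1 encodes the enzyme that makes core 1 O-glycans, Sec16a organises the sites where cargo leaves the endoplasmic reticulum, and Slc17a9 encodes the vesicular nucleotide transporter. Each is the highest of 11448 values and carries no test.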

How the data were processed

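The authors removed ribosomal RNA, made stranded libraries, ran them on an Illumina NovaSeq, trimmed reads with Trimmomatic, aligned them with STAR 2.5.3a to mm10 (GRCm38) and counted reads per gene with featureCounts. The deposited values were raw counts, unfiltered and not normalized. How strand and multiple alignments were handled in counting is not given in the sources used here. 0 columns were left without a sample.

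Genes with at least 1 CPM in at least 4 libraries were kept (15952 of 36694 with any count). edgeR 4.0.16 (R 4.3.3) tested EPR cKO against EPR fl/fl by the quasi-likelihood F test with TMM scaling over all 12 libraries, without covariates, with Benjamini-Hochberg adjustment over all tested genes, at an adjusted p under 0.05. Each SE was computed as the size of the log2 fold change over the square root of its F. The biological coefficient of variation was 26.1% and the median SE 0.14 on the log2 scale, and scripts were tested on simulated data. The depth of 13093904 to 33211041 counts limits mainly the genes of few CPM (Rab37 and Anxa13 had 61 counts in their lowest library). Levels between genes were divided by exon length. Marker lists were compared by exact two-sided permutation of the libraries. The gene–score relations used 100000 permutations within groups and were added after the data were seen. No 2 libraries of a group agreed within counting noise (smallest chi-square per gene 20.9).

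Libraries of the same number in both groups correlated by 0.0972, -0.0633, -0.0954, 0.34, -0.242 and 0.253 after the group means were removed. These values were not set against those of libraries of unlike number. They therefore cannot decide whether the numbers pair the samples. The members and the gene lists were chosen with earlier results of these data known. Genes named are the 10 members, Smim31, Muc2, every list gene past an adjusted p of 0.05, up to 2 others of highest mean CPM in each list, the gene most alike to each member, and marker genes that decide a sum. S100a10 was named besides, as a gene of the annexin list that is not an annexin. Genes called without EPR cKO 1, the ratio reference Tff3 and the mast cell marker Mcpt1 were named after their values were seen. Alternatives were other scalings, filters, DESeq2 1.42.0, limma-voom (limma 3.58.1), a replicate block, an epithelial covariate and leaving out each library.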

Additional observations from a re-analysis of the deposited data

Results flagged for a closer look

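Of 36 sets of 6 libraries examined (the 10 genes, Smim31, Muc2 and the 6 called pathway genes in each group), 4 had a single library whose gap to its nearest neighbour was beyond Dixon's 95% limit, where chance gives about 1 in 20 (1.8 sets). EPR cKO 1 was the highest of its group for Rab27a (34.4 CPM, next 27.4) and the lowest for Rab3d (62.6 CPM, next 91.5). The same library had the highest smooth muscle and the lowest epithelial and goblet marker levels of its group, and the part of these in the 2 values was not tested. EPR cKO 2 was the highest of its group for Smim31 (0.424 CPM, next 0.134), still below every EPR fl/fl library. EPR cKO 5 was the lowest of its group for Muc2 (1073 CPM, next 1735).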

How the results depend on the processing

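Under all 8 alternatives with all libraries and all 12 fits without 1 library, 9 of the 10 genes had a negative log2 fold change and none changed sign. Sytl2, Rab27a, Fer1l6 and Capn9 were called lower in every one of these fits, and Vamp8 in none. With all libraries, Rab37 was lost only with the epithelial covariate, Hid1 with that covariate and with total counts, and Rab3d and Anxa13 with the covariate and the replicate block. In the 12 fits without 1 library, Hid1 was lost in 5 (without EPR fl/fl 4 or EPR cKO 3, 4, 5 or 6, adjusted p up to 0.0841), Anxa13 in 3 (EPR fl/fl 4, EPR cKO 3 or 6, up to 0.0561) and Rab3d in 3 (EPR fl/fl 4, EPR cKO 2 or 3, up to 0.0637). Of the 8 members called lower, 4 remained with the covariate, 6 with the replicate block, and 7 with total counts. Of the 15952 tested genes, these fits called 92, 178 and 247 lower. The epithelial covariate itself differed with genotype, so that a call lost with it cannot be assigned to either. DESeq2 called 9 members lower, with Capn8 added, beside 473 of 15910 genes. When 1 library was left out, 5 to 9 members were called, beside 145 to 2273 of all tested genes. The replicate block changed no other call among the members and named pathway genes, and it moved the genes called higher over all genes from 141 to 67.

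Over all tested genes, 251 were called lower, with 473 by the DESeq2 Wald test, 92 with the epithelial covariate and 145 to 2273 when 1 library was left out, the highest number without EPR cKO 1. The 141 called higher became 39 with total counts, 54 with no filter, 440 by DESeq2, 7 with the covariate and 28 to 1178 when 1 library was left out. Of the other pathway genes, 4 to 21 were called lower and 1 to 12 higher when 1 library was left out, the most without EPR cKO 1, and DESeq2 called 9 higher and the covariate 0. The cause of these shifts was not tested.

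Alternatives for the summed markers were added after the data were seen. The absorptive colonocyte sum was higher in EPR cKO by 0.39 on the log2 scale (adjusted p = 0.0375), and by 0.36 (adjusted p = 0.0704) with total counts. It was also not called in 6 of the 12 fits without 1 library (EPR fl/fl 1 or 3, EPR cKO 3, 4, 5 or 6, adjusted p up to 0.0657). When 1 library was left out, the log2 difference ranged from 0.31 to 0.45 for absorptive colonocyte, 0.25 to 0.37 for pan-epithelial, -0.21 to 0.0012 for tuft cell, -1.39 to -0.74 for smooth muscle, -0.19 to 0.37 for neutrophil, 0.23 to 0.41 for pancreatic acinar, -1.92 to -1.30 for mesothelial and fat, and -1.20 to -0.57 for enteric neuron and glia markers.

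The limits are those of bulk tissue from 6 mice a group. The genes of lowest count, Rab37, Capn8 and Anxa13, had the largest standard errors.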
